A study of Mus musculus with 12 samples.

Results

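The enzymes and partner proteins that write, copy and remove DNA methylation, and 2 core subunits of Polycomb repressive complex 2, were followed in activated mouse B cells after DNA damage. The 10 genes were the rows of the deposited table of normalised read counts whose gene name was Dnmt1, Uhrf1, Hells, Dnmt3a, Dnmt3b, Tet1, Tet2, Tet3, Ezh2 or Suz12. They were 10 of 29486 rows, and all 10 were among the 15577 genes that passed the filter on low values, which asked for at least 10 normalised counts in at least 4 libraries.

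Polyadenylated RNA was sequenced from splenic B cells of C57BL/6Babr mice, with 4 libraries in each of 3 conditions. All cells had been activated with LPS, a bacterial mitogen, at 10 µg/ml. The first condition was LPS for 48 h (LPS cells), the second was LPS for 48 h and then etoposide at 20 µM for 4 h (etoposide cells), and the third was LPS for 47 h, the inhibitor KU55933 at 10 µM for 1 h and then etoposide at 20 µM for 4 h (KU55933 cells). Etoposide traps topoisomerase II on DNA and leaves double strand breaks. KU55933 inhibits ATM, the kinase that signals such breaks. No condition had KU55933 without etoposide, so the inhibitor was compared only in damaged cells. Whether the LPS cells were also kept for the last 4 h is not in the labels. The methods give mice of 8 to 12 weeks, and each condition carries its own Illumina indexes, so index and condition cannot be told apart.

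DNA methylation at CpG sites is copied after each round of replication by Dnmt1, which is brought to half-methylated DNA by Uhrf1, and the chromatin remodeller Hells opens nucleosomal DNA for this step. Dnmt3a and Dnmt3b place methyl groups on unmethylated sites, and the Tet dioxygenases oxidise 5-methylcytosine on the path to its removal. Ezh2 is the catalytic subunit of Polycomb repressive complex 2, which methylates lysine 27 of histone H3, and Suz12 is a subunit the complex needs for its assembly and activity. In B cells Ezh2 and Dnmt1 are known for their high levels in dividing germinal centre cells, and Tet2 for its loss in lymphoid tumours.

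The windows around the transcription starts of these genes were read from RefSeq on GRCm38.p6, from 250 bases before to 50 bases after each start. All 10 genes matched, with 15 windows. The letters TTCGCGC or TTGGCGC on either strand, a form of the site of the E2F factors that act on replication genes, stood in 4 of the 15 windows (26.7%), against 1277 of 32851 windows of all genes (3.89%). The 4 genes with these letters were Dnmt1, Uhrf1, Hells and Ezh2. Counted by gene, they stood in 40.0% of the 10 genes, in 4.47% of all genes and in 7 of the 18 genes of a DNA replication list that matched (38.9%). The windows of these 4 genes are printed with that of Tet1, the gene with the widest ratio to LPS cells among the 10. Neither these letters nor those of the other motifs searched were found in the Tet1 window. The same holds for the windows of Dnmt3a and Tet2, and those of Dnmt3b, Tet3 and Suz12 also lack the E2F letters. By the gene positions given below, the Tet1 window lies inside the gene, and the 5′ end of Tet1 at 62908996 was not searched. The windows of Dnmt3a, Tet2, Tet3 and Ezh2 also leave out the 5′ end of the gene at those positions. Capitals mark the E2F letters as they read on the strand of the gene, 5′ to 3′. The first capital base lies at −219, −158 and 35 from the start in the Dnmt1 window (chr9:20952574-20952873, minus strand), at −184 in the Uhrf1 window (chr17:56304063-56304362, plus strand), at −43 in the Hells window (chr19:38930740-38931039, plus strand) and at 5 in the Ezh2 window (chr6:47594981-47595280, minus strand). The Tet1 window is chr10:62887275-62887574 on the minus strand.
Dnmt1: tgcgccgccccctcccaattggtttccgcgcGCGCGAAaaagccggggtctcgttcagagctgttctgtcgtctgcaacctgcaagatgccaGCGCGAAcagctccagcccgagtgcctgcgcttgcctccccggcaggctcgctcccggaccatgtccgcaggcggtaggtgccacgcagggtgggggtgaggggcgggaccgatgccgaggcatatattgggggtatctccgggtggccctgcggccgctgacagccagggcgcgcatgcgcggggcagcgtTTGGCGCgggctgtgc
Uhrf1: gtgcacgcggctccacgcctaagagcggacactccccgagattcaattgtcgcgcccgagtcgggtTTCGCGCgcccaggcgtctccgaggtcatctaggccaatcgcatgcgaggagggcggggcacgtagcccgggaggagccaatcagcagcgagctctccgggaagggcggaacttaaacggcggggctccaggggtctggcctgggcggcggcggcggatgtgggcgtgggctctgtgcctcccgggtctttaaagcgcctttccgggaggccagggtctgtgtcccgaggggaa
Hells: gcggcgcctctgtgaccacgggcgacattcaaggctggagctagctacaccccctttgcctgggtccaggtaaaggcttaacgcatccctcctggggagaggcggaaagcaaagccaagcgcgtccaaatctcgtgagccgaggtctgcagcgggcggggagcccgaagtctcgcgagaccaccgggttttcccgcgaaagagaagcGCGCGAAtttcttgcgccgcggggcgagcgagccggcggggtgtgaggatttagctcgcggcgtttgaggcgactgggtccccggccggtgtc
Ezh2: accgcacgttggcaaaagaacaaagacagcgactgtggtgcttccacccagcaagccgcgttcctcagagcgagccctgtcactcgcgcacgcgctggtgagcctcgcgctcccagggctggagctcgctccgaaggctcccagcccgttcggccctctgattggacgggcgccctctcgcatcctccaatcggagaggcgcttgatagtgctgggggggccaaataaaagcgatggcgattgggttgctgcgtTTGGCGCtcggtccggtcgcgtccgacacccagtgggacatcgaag
Tet1: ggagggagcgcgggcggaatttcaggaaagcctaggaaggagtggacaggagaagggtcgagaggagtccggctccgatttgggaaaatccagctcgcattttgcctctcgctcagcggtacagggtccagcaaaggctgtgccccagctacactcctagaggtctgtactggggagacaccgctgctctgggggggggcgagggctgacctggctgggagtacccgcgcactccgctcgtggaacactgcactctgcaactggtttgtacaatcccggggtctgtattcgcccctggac
The Dnmt1 window shown is 1 of 3 in RefSeq and the Uhrf1 window 1 of 2, and the other windows of both genes lack these letters. The letters TTTGAA, a form of the site called CHR in mitotic genes, stood in 3 of the 15 windows (20.0%) and in 17.9% of all windows. CCAAT stood in 7 of the 15 windows (46.7%) and in 37.4% of all windows. A match describes the letters and does not show that a factor binds there, and both strands were searched for all 3 motifs. The windows of all genes were not limited to genes that passed the filter.

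The deposited values limit what can be compared. Within a condition the 4 columns are proportional over all 29486 genes, so each is the mean fitted for the condition times a factor of the library, and no spread between replicates is left. The 4 deposited values of a gene in a condition differ only by the depth of the libraries, and whether conditions overlap in them says nothing about replicates. No test was therefore possible, and whether a ratio exceeds the spread between replicates is not known. Each level here is the fitted value divided by the size factor of the library, in normalised read counts, and each log2 ratio has a counting error, which is a lower limit of the true error. A gene was counted as past the threshold at 1.5-fold, a log2 ratio of 0.58. The column totals, in units of 1000000 counts, were 20.7 to 23.9 in LPS cells, 22.5 to 30.6 in etoposide cells and 20.4 to 25.1 in KU55933 cells. The summed level of 6 B cell markers was 135602, 72391 and 82085 in the same order, and that of 6 T cell markers was 11.3, 22.4 and 14.6, with no single one above 13.6. The sum of 6 macrophage markers was 424, 463 and 429, and the part of other cells in the results was not tested. Both comparisons with the LPS cells share the same libraries, as do both comparisons that use the etoposide cells.

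With etoposide, 1 of the 10 genes was past 1.5-fold higher than in LPS cells, Tet1, against 21.0% of all genes that passed the filter. Uhrf1, Hells and Ezh2 were past 1.5-fold lower, 3 of 10, against 17.9% of all genes. The other 6 genes lay within 1.5-fold, and the median log2 ratio of the 10 was −0.48, beside −0.055 over all genes. With KU55933 under etoposide none of the 10 was past 1.5-fold higher than in etoposide cells, against 7.36% of all genes, and 1 was lower, again Tet1, against 11.5%. The median log2 ratio was −0.11, beside −0.031 over all genes. Set against LPS cells, KU55933 cells had none of the 10 past 1.5-fold higher, against 19.5% of all genes, and 4 lower, Dnmt1, Uhrf1, Hells and Ezh2, against 16.9%. The median was then −0.55, beside −0.0099 over all genes. These 4 genes are those with the E2F letters printed above, but the match holds in this comparison only. With etoposide Dnmt1 was within 1.5-fold, and with KU55933 under etoposide all 4 were. The match also depends on the scaling. Under quantile normalization Dnmt1 was not past 1.5-fold against LPS cells, at a log2 ratio of −0.51. Under the trimmed mean of M-values and the median of ratios over all genes Dnmt3a, which lacks the letters, was past 1.5-fold too, at −0.59. The part of E2F factors in these levels was not tested. In RNA from whole cultures, fewer cells that express a gene and less of its RNA per cell cannot be told apart.

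**Figure D1:**
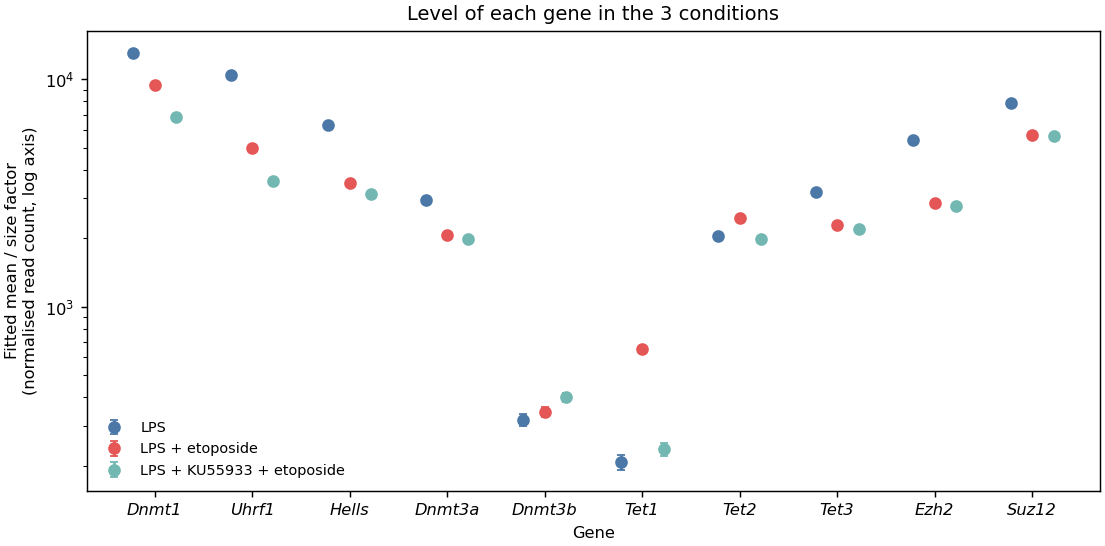
Level of each gene in LPS cells (blue), etoposide cells (red) and KU55933 cells (green), in normalised read counts on a log axis. Points are fitted means of 4 libraries and bars are 95% counting intervals, mostly smaller than the points. Tet1 is the gene past 1.5-fold higher with etoposide (207, 651 and 236), while Dnmt1 and Uhrf1 step down from LPS to etoposide to KU55933 cells.

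The 3 genes of maintenance methylation had lower levels in both damaged conditions than in LPS cells. Uhrf1 (ENSMUSG00000001228, GRCm38 chr17:56303321-56323486, plus strand), which reads half-methylated CpG, had deposited values of 8403, 9323, 9698 and 8738 in the 4 libraries of LPS cells. They were 4901, 5493, 6653 and 5325 with etoposide, and 3261, 3678, 3940 and 4005 with KU55933 and etoposide. The values are highest in LPS cells and lowest in KU55933 cells. Divided by size factors, the level was 10431, 4991 and 3574, which is 2.09-fold lower with etoposide at a log2 ratio of −1.06 (counting SE 0.012). Of all genes that passed the filter, 5.60% had a lower ratio. KU55933 cells had a further log2 ratio of −0.48 (counting SE 0.015) against etoposide cells, and stood 2.92-fold below LPS cells. In that last comparison 1.81% of genes had a lower ratio than Uhrf1. Across 6 other scalings the ratio with etoposide lay between −1.12 and −0.74.

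Dnmt1 (ENSMUSG00000004099, chr9:20907209-20959888, minus strand), the maintenance methyltransferase, had deposited values of 10510, 11660, 12129 and 10929 in LPS cells and of 9301, 10425, 12626 and 10106 in etoposide cells. In KU55933 cells they were 6220, 7014, 7515 and 7638. The level was 13047, 9472 and 6816, with a log2 ratio of −0.46 (counting SE 0.0097) with etoposide and −0.47 (counting SE 0.011) with KU55933 under etoposide. Each step alone was within 1.5-fold, and together they gave −0.94, or 1.91-fold lower. The first step depends on the scaling, from −0.51 to −0.13 across the 6 others, and the second less so, from −0.50 to −0.38.

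Hells (ENSMUSG00000025001, chr19:38930915-38971051, plus strand), the remodeller, had deposited values of 5097, 5655, 5882 and 5300 in LPS cells, 3438, 3853, 4667 and 3735 in etoposide cells, and 2860, 3225, 3455 and 3512 in KU55933 cells. The level was 6327, 3501 and 3134. Hells was 1.81-fold lower with etoposide, at a log2 ratio of −0.85 (counting SE 0.015), and the ratio of KU55933 to etoposide cells was −0.16. Across the 6 other scalings the first ratio lay between −0.91 and −0.60 and the second between −0.18 and −0.092, so the first was the larger in each.

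The ratio between 2 genes of the same library is the same under any scaling by 1 factor per library, though not under quantile normalization. Per kilobase of exon, Uhrf1 was 1.38 times the level of Dnmt1 in LPS cells, 0.913 times in etoposide cells and 0.908 times in KU55933 cells, with counting errors of 0.71%, 0.83% and 1.0% of the ratio. Hells stood at 0.497, 0.378 and 0.471 times the level of Dnmt1. The Uhrf1 ratio was lower in both damaged conditions than in LPS cells, and the Hells ratio was lowest in etoposide cells.

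Of the enzymes that place new methyl groups, Dnmt3a (ENSMUSG00000020661, chr12:3806007-3914443, plus strand) had a level of 2936, 2071 and 1991. Its log2 ratio was −0.50 (counting SE 0.021) with etoposide and −0.057 (counting SE 0.022) with KU55933 under etoposide. Dnmt3b (ENSMUSG00000027478, chr2:153649450-153687730, plus strand) had 319, 344 and 400. It was the 1 gene of the 10 with ratios above 0 in all comparisons, at 0.11 (counting SE 0.057), 0.22 (counting SE 0.051) and, for KU55933 against LPS cells, 0.33 (counting SE 0.056), each within 1.5-fold and the first within 2 counting SEs of 0. Dnmt3a was 2.83 times Dnmt3b per kilobase in LPS cells, 1.85 times in etoposide cells and 1.53 times in KU55933 cells. The summed level of the 3 methyltransferases per kilobase was 2007, 1476 and 1122, of which Dnmt1 made up 88.1%, 87.0% and 82.3%, and Dnmt3b 3.11%, 4.56% and 6.99%.

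Tet1 (ENSMUSG00000047146, chr10:62804570-62908996, minus strand), the lowest of the 10 genes in every condition per kilobase, had the widest ratios with etoposide and with KU55933 under etoposide. Its deposited values were 167, 185, 192 and 173 in LPS cells, 639, 716, 867 and 694 in etoposide cells, and 216, 243, 260 and 265 in KU55933 cells. They are highest in etoposide cells. The level was 207, 651 and 236, which is 3.14-fold higher with etoposide at a log2 ratio of 1.65 (counting SE 0.060), and 7.61% of genes had a higher ratio. KU55933 cells were 2.75-fold below etoposide cells, at −1.46 (counting SE 0.053), where 1.80% of genes had a lower ratio. The level in KU55933 cells was 14.2% above that in LPS cells, a log2 ratio of 0.19 (counting SE 0.071). The 6 other scalings gave at most 1.82 for the first ratio, with every value past 1.5-fold, and −1.52 to −1.42 for the second. The fitted reads behind these values were 717, 2917 and 984 over the 4 libraries of each condition.

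Tet2 (ENSMUSG00000040943, chr3:133463679-133545139, minus strand) was, like Tet1, highest in etoposide cells, by a smaller ratio. Its level was 2038, 2458 and 1991, with log2 ratios of 0.27 (counting SE 0.022) and −0.30 (counting SE 0.021). KU55933 against LPS cells was at −0.034, and 4 of the 6 other scalings put that ratio above 0. Tet3 (ENSMUSG00000034832, chr6:83362373-83459084, minus strand) was instead lower in both damaged conditions, at 3200, 2291 and 2204, with log2 ratios of −0.48 (counting SE 0.020) and −0.056 (counting SE 0.021).

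Summed per kilobase, the 3 Tet genes stood at 326, 325 and 265. With these size factors the total was near equal in LPS and etoposide cells while its makeup differed. The near equality depends on the scaling. With column totals the ratios with etoposide were higher for all 3, at 1.82 for Tet1, 0.44 for Tet2 and −0.31 for Tet3. Tet1 was 4.10% of the sum in LPS cells, 12.95% in etoposide cells and 5.76% in KU55933 cells. Tet2 was 37.1%, 44.8% and 44.5%, and Tet3 58.8%, 42.2% and 49.8%. Tet2 was thus above Tet3 in etoposide cells only, by exonic length. With the length of the longest transcript, Tet2 was 51.2% and Tet3 40.2% in etoposide cells, and Tet2 was also above Tet3 in KU55933 cells, at 49.8% and 46.4%. Set against Dnmt1 in the same libraries, Tet1 per kilobase was 0.00756, 0.0328 and 0.0165 times its level, 4.34-fold higher in etoposide than in LPS cells. The ratio of Tet2 to Dnmt1 was 0.0683, 0.113 and 0.128, and that of Tet3 to Dnmt1 was 0.108, 0.107 and 0.143.

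**Figure D2:**
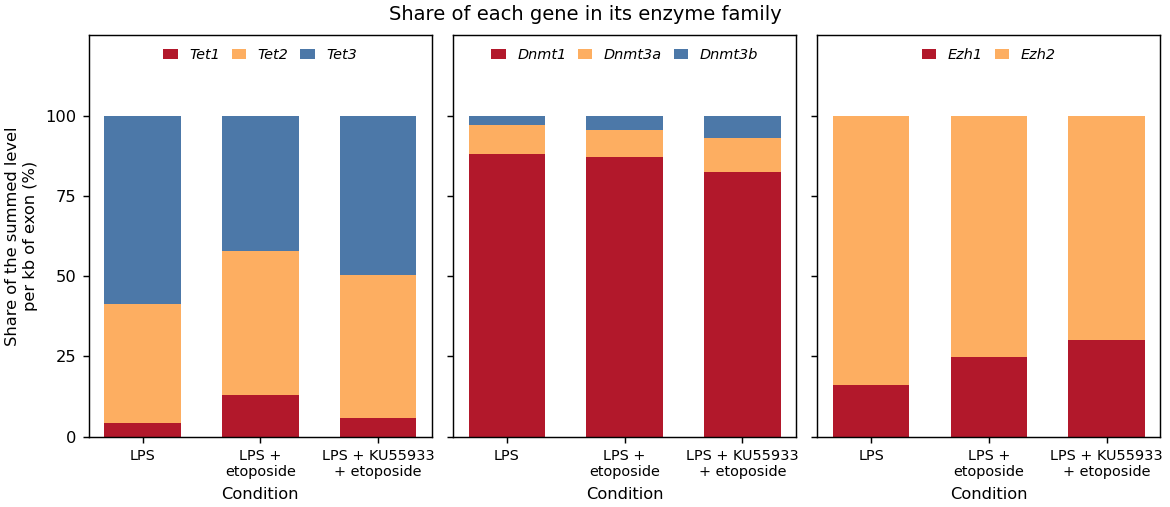
Share of each gene in the summed level per kilobase of exon of its family, in percent, for the Tet genes (left), the DNA methyltransferases (middle) and the Ezh genes (right) in the 3 conditions. Tet1 goes from 4.10% of the Tet sum in LPS cells to 12.95% in etoposide cells, Dnmt1 holds at least 82.3% of its sum, and Ezh1 goes from 16.0% to 29.9% of its sum. The Ezh sum itself is 968 in LPS cells, 568 in etoposide cells and 590 in KU55933 cells.

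Ezh2 (ENSMUSG00000029687, chr6:47530139-47595341, minus strand), the histone methyltransferase, had deposited values of 4375, 4854, 5049 and 4549 in LPS cells. With etoposide they were 2806, 3145, 3808 and 3048, and with KU55933 and etoposide 2520, 2842, 3044 and 3094. The level was 5431, 2857 and 2761, 1.90-fold lower with etoposide at a log2 ratio of −0.93 (counting SE 0.017). The ratio of KU55933 to etoposide cells was −0.049, and quantile normalization put it above 0. Suz12 (ENSMUSG00000017548, chr11:79993106-80034123, plus strand) had 7896, 5692 and 5606, with a log2 ratio of −0.47 (counting SE 0.013; −0.52 to −0.15 under other scalings) with etoposide. Its ratio for KU55933 under etoposide was −0.022, which 3 of the 6 other scalings put above 0.

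The Ezh2 level per kilobase was 0.509, 0.372 and 0.365 times that of Suz12, so the catalytic subunit was lower relative to its partner in both damaged conditions. With the length of the longest transcript Ezh2 stood at 1949, 1025 and 991, and Suz12 at 1806, 1302 and 1282. By that length Ezh2 was above Suz12 in LPS cells and below it in both damaged conditions. Ezh1, the other catalytic subunit, had levels of 1152, 1045 and 1315. Its log2 ratio was −0.14 with etoposide (−0.19 to 0.027 under other scalings) and 0.33 with KU55933 under etoposide. Ezh1 made up 16.0% of the Ezh sum in LPS cells, 24.7% in etoposide cells and 29.9% in KU55933 cells. The higher share in etoposide cells thus came with a lower Ezh2 level and not with a higher Ezh1 level. With the length of the longest transcript the Ezh1 shares were 12.3%, 19.5% and 24.0%. Part of the exons of Dnmt3a, Tet2, Ezh2 and Suz12 overlap a gene on the opposite strand, by 133, 43, 174 and 178 bases. The strand setting of the read counting is not given in the sources used here, so reads from these stretches could belong to either gene.

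**Figure D3:**
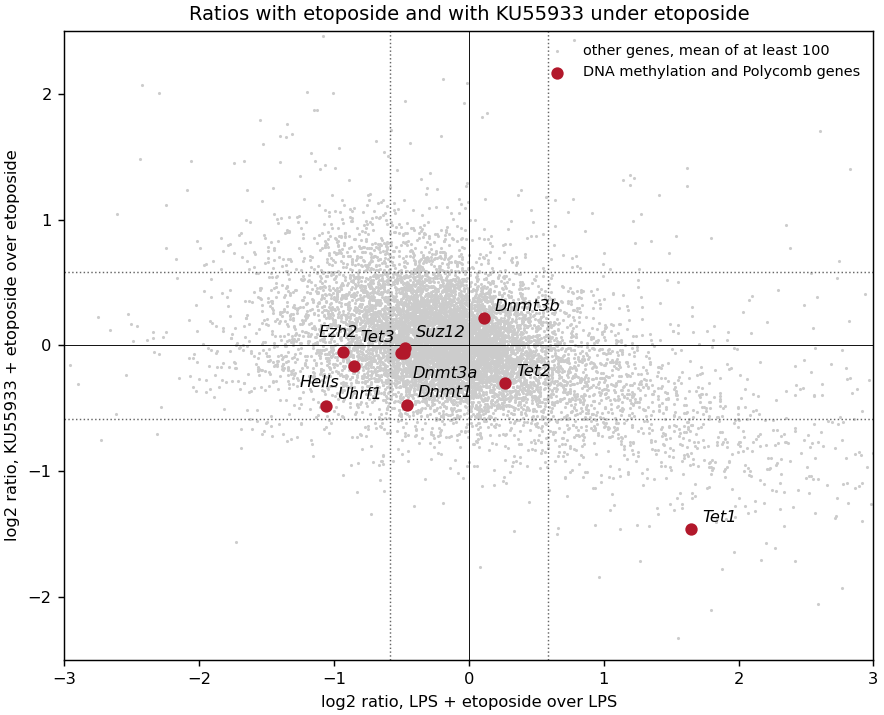
Log2 ratio of etoposide to LPS cells (horizontal) and of KU55933 to etoposide cells (vertical) for the 10 genes (red) and other genes with a mean of at least 100 (grey, 10738 of 10870 genes compared lie within the axes). Dotted lines mark 1.5-fold. Tet1 lies at 1.65 and −1.46, Uhrf1, Hells and Ezh2 lie left of the dotted line, and Dnmt1 and Uhrf1 are the lowest on the vertical axis after Tet1.

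The pair of ratios of each gene was compared with those of 10869 other genes with a mean of at least 100, by the distance between the points of that plot. It rests on 3 conditions, so it is a coarse measure of likeness. No gene lay within 0.1 of Tet1, and the nearest was Dgkh, a diacylglycerol kinase, at a distance of 0.18 and with log2 ratios of 1.58 and −1.29. For Uhrf1 there were 9 genes within 0.1, the nearest being Nxpe2 at 0.0071. Dnmt1 had 57 (nearest Grwd1, a ribosome assembly factor), Hells 63 (nearest Bag2, a cochaperone of Hsp70) and Ezh2 64 (nearest Slc25a12, the mitochondrial aspartate and glutamate carrier). For the others there were more, with the nearest gene in parentheses: Tet2 had 131 (Gpr107), Dnmt3b 190 (Slc25a20), Dnmt3a 224 (Paics), Tet3 231 (Syvn1) and Suz12 271 (Mark3).

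Levels of different genes were compared per kilobase of exon. In LPS cells the order was Uhrf1 (2449), Dnmt1 (1769), Suz12 (1597), Hells (878), Ezh2 (813), Tet3 (192), Dnmt3a (176), Tet2 (121), Dnmt3b (62.4) and Tet1 (13.4). In etoposide cells Dnmt1 (1284) stood first, with Uhrf1 (1172) and Suz12 (1151) close behind. In KU55933 cells Suz12 (1134) stood first, above Dnmt1 (924) and Uhrf1 (839). Tet2 was sixth in etoposide cells (146) and eighth in KU55933 cells (118). By the length of the longest transcript Tet2 was sixth in both. Dnmt3b and Tet1 were the lowest in all 3 conditions, at 67.3 and 42.1 in etoposide cells and at 78.4 and 15.3 in KU55933 cells. The place of Ezh2 rests on its length: its merged exons span 6678 bases and its longest transcript 2787, and by the latter it stood next after Dnmt1 in LPS cells. Whether neighbours in this order differ beyond the spread between replicates is not known.

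Of 7 partners of maintenance methylation that passed the filter, 4 were past 1.5-fold lower with etoposide, against 17.9% of all genes, and none was higher (median log2 ratio −0.64). With KU55933 under etoposide 1 was lower, against 11.5% (median −0.30), and in KU55933 against LPS cells 6 were, against 16.9% (median −1.01). Usp7, the deubiquitinase that binds Uhrf1 and Dnmt1, had levels of 8431, 4707 and 4086, and a log2 ratio of −0.84 with etoposide. Cdca7, the zinc finger partner of Hells, had 3639, 2140 and 1674 (−0.77 with etoposide), and its paralogue Cdca7l 778, 404 and 386 (−0.94). The PCNA-binding factor 2810417H13Rik (Pclaf) had 7809, 5001 and 2650, with a log2 ratio of −0.92 for KU55933 under etoposide. Pcna, the sliding clamp that binds Dnmt1 at forks, had 9043, 7244 and 5344, and its ratio with etoposide was −0.32, with −0.37 to 0.045 across the 6 other scalings, so that its sign is not fixed.

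Of 7 proteins that bind methylated CpG, Zbtb33 (Kaiso) was past 1.5-fold higher with etoposide and Mbd3 and Zbtb4 were lower. The shares of all genes were 21.0% higher and 17.9% lower. Zbtb33 had levels of 2686, 4116 and 3210, a log2 ratio of 0.62 and then −0.36, and the first was as low as 0.56, short of the threshold, across the other scalings. Mbd3, a subunit of the NuRD complex, had 2566, 1101 and 1435 (−1.22, then 0.38), and Zbtb4 875, 445 and 591 (−0.98, then 0.41). None of the 7 was past 1.5-fold with KU55933 under etoposide, where 7.36% of all genes were higher and 11.5% lower. The 3 glycosylases that can remove oxidised or deaminated bases were all within 1.5-fold in every comparison. So were most of the 15577 genes that passed the filter. They numbered 9520 with etoposide, 12646 with KU55933 under etoposide and 9908 in KU55933 against LPS cells. With etoposide Tdg, which excises the end products of Tet oxidation, had a log2 ratio of −0.022, Mbd4 of −0.40 and Smug1 of −0.24, and with KU55933 under etoposide the 3 lay between 0.022 and 0.092.

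Of 9 other subunits of Polycomb repressive complex 2, with etoposide 2 were past 1.5-fold higher and 3 lower, against 21.0% and 17.9% of all genes, and with KU55933 under etoposide none was higher and 2 lower, against 7.36% and 11.5%. The counts with etoposide are near these shares. Eed, the subunit that binds trimethylated lysine 27, had levels of 2317, 4730 and 2991, log2 ratios of 1.03 and −0.66. Phf1, a Polycomb-like subunit, had 426, 1707 and 1129, with 2.00 and −0.60, and the second lay within 1.5-fold, at −0.56, at the upper end of the other scalings. Phf19, of the same Polycomb-like family, had 1495, 603 and 623 (−1.31, then 0.048), and Jarid2, an accessory subunit, 1502, 613 and 649 (−1.29, then 0.082). Rbbp7, a histone-binding subunit shared with other complexes, had 8696, 4900 and 3532 (−0.83, then −0.47). Eed and Ezh2 thus lay on opposite sides, and per kilobase Ezh2 was 1.34 times Eed in LPS cells, 0.346 times in etoposide cells and 0.529 times in KU55933 cells. Eed was 0.379, 1.07 and 0.689 times Suz12. The size of these ratios, though not their change between conditions, rests on the exonic lengths used.

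Polycomb repressive complex 1, which ubiquitinates histone H2A, had 22 subunits that passed the filter. With etoposide 3 were past 1.5-fold higher and 8 lower (median −0.38), against 21.0% and 17.9% of all genes. With KU55933 under etoposide 7 were higher and 1 lower (median 0.26), against 7.36% and 11.5%. Rnf2, the catalytic subunit, had levels of 1799, 3396 and 2324 (0.92, then −0.55), and Ring1, its paralogue, 496, 371 and 625 (−0.42, then 0.75). Among the subunits that define variants of the complex, Pcgf3 had 905, 2821 and 1762 (1.64, then −0.68), and Pcgf5 892, 849 and 1392 (−0.072, then 0.71). Phc1, a polyhomeotic subunit, had 648, 420 and 873 (−0.62, then 1.05), and Yaf2, of the variant complexes, 640, 293 and 437 (−1.13, then 0.58). Of 5 proteins that remove these marks or assist their removal, Kdm6b, a demethylase of lysine 27, had the widest ratio, at levels of 738, 3017 and 3631 (2.03, then 0.27). Kdm6a, the other demethylase, had 2228, 1665 and 1382 (−0.42, then −0.27). Asxl1, a cofactor of the H2A deubiquitinase Bap1, had 4482, 2077 and 2280 (−1.11, then 0.13), and Asxl2, its paralogue, had log2 ratios of −0.46 and −0.18.

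**Figure D4:**
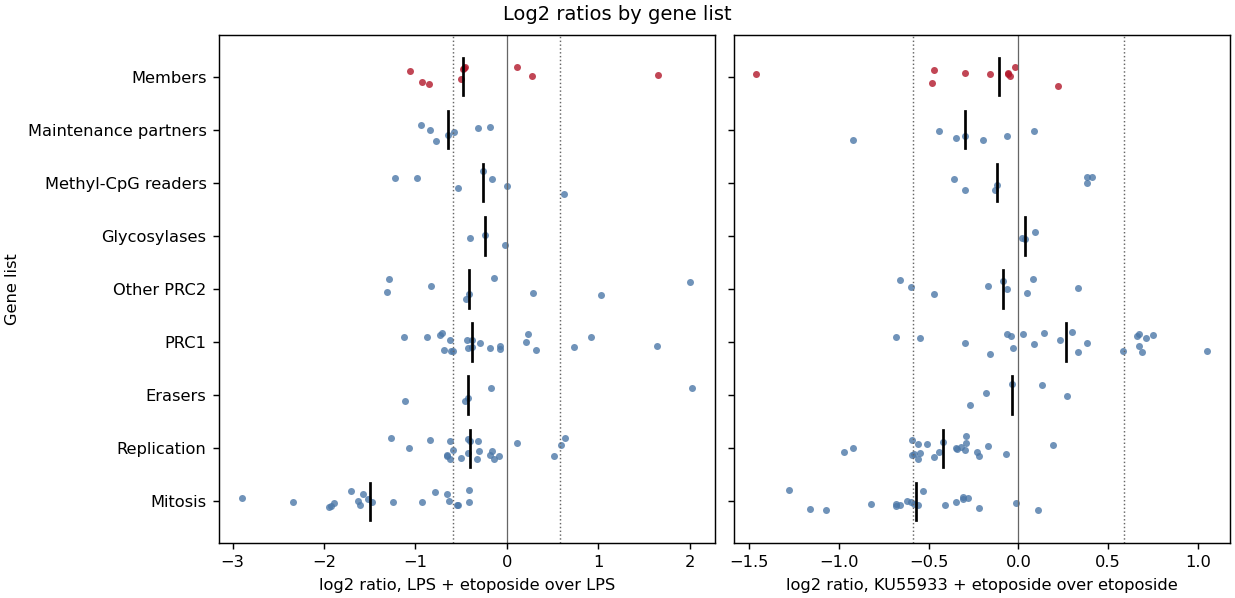
Log2 ratio of each gene that passed the filter, by list, for etoposide against LPS cells (left) and KU55933 against etoposide cells (right). Points are genes, black bars list medians and dotted lines 1.5-fold. The 10 DNA methylation and Polycomb genes (red) have medians of −0.48 and −0.11, the replication genes of −0.40 and −0.42 and the mitosis genes of −1.49 and −0.57.

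Lists of replication and mitosis genes are given beside these results, to be read against the shares of all genes above. Of 23 replication genes, 2 were past 1.5-fold higher and 8 lower with etoposide (median −0.40), none higher and 4 lower with KU55933 under etoposide (median −0.42), and none higher and 17 lower in KU55933 against LPS cells (median −0.75). Mcm6, a subunit of the replicative helicase, had −0.84 with etoposide, Pola1, the catalytic subunit of the primase polymerase, −1.27 and Ccne1, a cyclin of S phase entry, −1.07. All 20 mitosis genes were past 1.5-fold lower in KU55933 against LPS cells (median −1.95), and 16 were with etoposide (median −1.49). Plk1, a mitotic kinase, had −2.90 with etoposide, Ube2c, the ubiquitin carrier of the anaphase complex, −2.34 and Nusap1, a spindle protein, −1.95. With KU55933 under etoposide 9 of the 20 were lower, among them Cdc20 at −1.28, Kif20a at −1.16 and Mki67 at −1.07, whose levels were 33505, 21259 and 10139. For KU55933 under etoposide, Dnmt1 and Uhrf1 stood at −0.47 and −0.48 beside the replication median of −0.42, and Ezh2 at −0.049. The part of the cell cycle in the levels of the 10 genes was not tested.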

How the data were processed

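Polyadenylated RNA of activated B cells was sequenced in 3 conditions with 4 libraries each, 12 in all. Per the labels and methods, libraries were polyA-selected TruSeq mRNA, and the authors trimmed reads with Trim Galore and cutadapt (1.2.1), mapped them to GRCm38 with TopHat2 (2.0.12), counted them on Ensembl release 78 genes with HTSeq and fitted DESeq2 (1.6.3). The deposited table holds, for each gene and library, a normalised read signal that multiplies a mean fitted per condition by a library factor, as the proportional columns show. Whether these means were moderated toward 0, as that fit can do, is not stated. The 3 deposited comparisons of the authors hold mean signals, fold changes, standard errors and p-values, and were not used.

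Size factors were set by median of ratios over the 19515 genes with at least 1 in every column. Log2 ratios used a pseudocount of 1 on levels and the filter of 10 in at least 4 libraries. The linear model planned for replicate values could not be run on fitted means, so no p-value is given. The counting error of a log2 ratio comes from the summed fitted reads of 4 libraries. Lengths, positions and overlaps come from GENCODE M21, which matched 29258 of 29486 genes. The 10 genes and all lists were chosen with earlier results of these data known. Besides the 10 genes, the text names from each list the 3 widest log2 ratios with etoposide and the 3 with KU55933 among genes with a mean of at least 100, the nearest gene in the likeness comparison, and Ezh1, chosen after its values were seen. One gene that this rule selects is not reported here. Python 3.11.15, numpy 2.4.6, pandas 2.3.3 and matplotlib 3.10.9 were used, and the functions were tested on simulated data.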

Additional observations from a re-analysis of the deposited data

How the results depend on the processing

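The 240 member log2 ratios under 8 alternatives (6 scalings, pseudocounts of 0.5 and 5) were in 146 cases inside the 95% counting interval of the reported ratio and in 94 cases outside it, and no ratio past 1.5-fold took the other sign. The 6 scalings kept 4 genes past 1.5-fold with etoposide and 1 with KU55933 under etoposide, and gave 3 to 5 for KU55933 against LPS cells. Of these scalings, the median of ratios over all genes and that over genes of at least 100 in every column were chosen after seeing the data. The median log2 ratio of all genes with etoposide went from −0.055 to 0.11 with column totals, so ratios near 0 have no fixed sign. Of genes past 1.5-fold, 54.0% were higher with etoposide, against 66.0% with the median of ratios over genes of at least 100 and 67.7% with column totals, and against 49.5% with the median of ratios over all genes and 46.1% with quantile normalization, where most were lower. For KU55933 against LPS cells 53.6% were higher, against 65.1% and 71.8% with the same settings.

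The threshold moved the counts. At 2-fold, 2 of the 10 genes were past it with etoposide (1 lower) and 2 in KU55933 against LPS cells (2 lower), with 3165, 983 and 2640 of all genes past it in the 3 comparisons. At a log2 ratio of 0.32, 8 were past it with etoposide (7 lower), 3 with KU55933 under etoposide (3 lower) and 8 in KU55933 against LPS cells (7 lower and 1 higher), with 9459, 6443 and 9333 of all genes. With the longest transcript as length, 5 of the 10 genes kept their rank in LPS cells. No paired analysis was possible because the 4 columns of a condition are proportional, and leaving out each replicate was not run since it would give the same fitted means. Depth limits Tet1 and Dnmt3b most, with counting errors of up to 3.74% and 3.01% of the level.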

Other observations

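Within the list of replication genes, 3 were, like Tet1 and Tet2, highest in etoposide cells. Rrm2, the small subunit of ribonucleotide reductase, had levels of 6055, 9434 and 4979 in LPS, etoposide and KU55933 cells, with log2 ratios of 0.64 (counting SE 0.012) and −0.92 (counting SE 0.012). Prim1, the catalytic subunit of primase, had 2111, 3188 and 2117 (0.59, then −0.59), and the first was as low as 0.54, within 1.5-fold, under another scaling. Ccne2, a cyclin of S phase entry, had 576, 828 and 422, and its ratio with etoposide of 0.52 was within 1.5-fold, while that with KU55933 was −0.97. The sign of the ratio of KU55933 to LPS cells for Rrm2 and Prim1 depends on the scaling, from −0.31 to 0.068 and from −0.028 to 0.21. These levels are fitted means, and no test of them was possible.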
